A study of Mus musculus with 6 samples.

Results

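The 10 immediate early genes Fos, Fosb, Jun, Junb, Egr1, Ier2, Ier3, Atf3, Nr4a1 and Zfp36 were chosen by name from the 24972 gene symbols measured by RNA-Seq in endothelial cells (ECs) isolated from mouse lungs, because digestion of a tissue into single cells is known to induce them. The 6 libraries fell into 2 genotypes. By the labels, the 3 control libraries came from PRR fl/Y mice, which carried the floxed Atp6ap2 allele (PRR is the (pro)renin receptor that this X-linked gene encodes) and no Cre, and the 3 Atp6ap2-iECKO libraries from PRR fl/Y mice that also carried Cdh5-CreERT2, a Cre that the promoter of the EC gene Cdh5 drives and tamoxifen activates. All pups received 100 µg of tamoxifen daily from P1 to P3, lungs were taken at P7, and the strain was given as C57BL/6 by the labels and as a mixed CD1 and C57BL/6 background by the methods. In every library the lungs were digested in collagenase I and dispase for 30 minutes at 37 °C and the CD31+ cells were bound to beads for 20 minutes. The controls had no Cre, so the loss of Atp6ap2 and the presence of active Cre cannot be told apart, and without a sample of undissociated lung, transcripts already present in the lung and transcripts induced during isolation cannot be told apart either.

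Immediate early genes are transcribed within minutes of a stimulus, without the need for new protein. Growth factors, stress, calcium signals and mechanical force reach them through the ERK, JNK and p38 kinases, which act on serum response factor (SRF) with its ternary complex partners and on CREB, bound at CArG boxes and cyclic AMP response elements (CREs). Most of the encoded proteins are transcription factors or RNA-binding regulators with short-lived mRNAs. Fos and Fosb encode FOS subunits, and Jun and Junb encode JUN subunits, of the dimeric factor AP-1. Atf3 encodes a stress-induced CREB family factor, Egr1 a zinc finger factor and Nr4a1 an orphan nuclear receptor. Zfp36 encodes tristetraprolin, which binds AU-rich elements and speeds the decay of mRNAs, while Ier3 encodes a regulator of ERK signaling and apoptosis and Ier2 a nuclear protein of the early response.

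The stretches before the annotated starts of Fos, Fosb, Junb and Nr4a1 are shown because these members carry the core of the CRE, TGACG, there, and because the first pair did not overlap between genotypes while the other pair did. For Nr4a1 the start is that of its shorter annotated transcripts, which lies inside the span of the whole gene. Capitals mark TGACG or its reverse complement CGTCA and, in Fos, TATAAA. The sequences are from RefSeq on GRCm38, read on the strand of the gene and cut where an annotated exon begins. They lie at chr12:85473751-85473889 on the plus strand for Fos, chr7:19310052-19310115 on the minus strand for Fosb, chr8:84978749-84978864 on the minus strand for Junb and chr15:101266603-101266845 on the plus strand for Nr4a1.
Fos: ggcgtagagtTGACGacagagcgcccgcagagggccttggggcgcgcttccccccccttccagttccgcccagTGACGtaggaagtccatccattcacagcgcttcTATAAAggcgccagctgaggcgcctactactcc
Fosb: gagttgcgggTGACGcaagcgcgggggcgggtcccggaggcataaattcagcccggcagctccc
Junb: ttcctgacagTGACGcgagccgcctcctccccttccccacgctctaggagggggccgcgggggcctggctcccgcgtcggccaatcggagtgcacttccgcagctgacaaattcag
Nr4a1: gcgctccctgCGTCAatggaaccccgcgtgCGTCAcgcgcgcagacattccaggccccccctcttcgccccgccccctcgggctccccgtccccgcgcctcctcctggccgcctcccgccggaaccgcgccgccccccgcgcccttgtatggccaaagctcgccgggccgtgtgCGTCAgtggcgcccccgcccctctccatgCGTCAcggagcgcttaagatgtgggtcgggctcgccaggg

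TGACG was found on either strand in the 250 bases before the start of 5 of the 8 members with a RefSeq promoter entry (Fos, Fosb, Junb, Nr4a1 and Atf3), against 17.8% of 32851 promoters of the same length. Nr4a1 held 4 copies and Fos held 2. The full CRE, TGACGTCA, of which TGACG is a part, was found in 0 of the 8 members (1.55% of all promoters), and the AP-1 site, TGACTCA or TGAGTCA, in 0 (4.46%), with both strands covered. A CArG box was found only in Zfp36, 58 to 49 bases before its start, against 1.47% of all promoters, and TATAAA only in Fos, against 12.4%. Jun and Ier3 held none of the motifs searched. For these and for the other members, a motif not found says only that its letters are not in this window. Sites further upstream were not searched. Egr1 and Ier2 had no promoter entry, so nothing is known here of their motifs.

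On mm10, the build of the alignment, Fos was annotated on chromosome 12 from 85473890 to 85477273, Fosb on chromosome 7 from 19302696 to 19310051, Jun on chromosome 4 from 95049034 to 95052222 and Junb on chromosome 8 from 84974484 to 84978718. Atf3 lay on chromosome 1 from 191170296 to 191218039, Nr4a1 on chromosome 15 from 101254269 to 101274795, Ier2 on chromosome 8 from 84661331 to 84662852 and Ier3 on chromosome 17 from 35821684 to 35822923. Egr1 lay on chromosome 18 from 34859823 to 34864984 and Zfp36 on chromosome 7 from 28376784 to 28380253. All are protein-coding. The library kit did not keep the strand, so reads of the antisense Junos over 232 of the 3189 exonic bases of Jun, of Prdx2 at the end of Junb and of Gm44710 over 125 of the 3470 exonic bases of Zfp36 could not be told apart from those of the member.

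Values are the normalized counts that the authors deposited, which the labels call raw counts. Most values had decimals, however, and all 6 libraries had the same median ratio (1.0036) to a reference formed from the geometric mean of each gene, so they had already been scaled to each other. The totals were 26243878 to 28725799 normalized counts per library, and the read depth behind them is unknown. Atp6ap2, the targeted gene, was at 7490, 5815 and 5681 in the controls and at 4220, 2336 and 1982 in Atp6ap2-iECKO, a log2 fold change of -1.22 (SE 0.26, limma adjusted p = 0.0306), and all mutant libraries lay below all controls. Without 1 library that adjusted p ran from 0.00604 to 0.103 and was below 0.05 only without Atp6ap2-iECKO replicate 1. Although every label gives fl/Y, Xist, the RNA that coats an inactive X chromosome, was at 37704 and 44402 in control replicates 1 and 2 and at 39442 and 47487 in Atp6ap2-iECKO replicates 1 and 3, but at 31.7 in control replicate 3 and 19.3 in Atp6ap2-iECKO replicate 2. Y-linked genes summed to 7177 and 7402 in the latter pair, to 239 in control replicate 1 and to at most 19 in the other 3. The high libraries, 2 of each genotype, go against a male label, the methods state that neonates of both sexes entered the study, and the test was also run on those 4 alone.

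Markers of other cells differed between genotypes or libraries as well. Of the 10 EC markers Tek alone passed the test, and their summed level was 282948 to 360610 in the controls and 299387 to 338048 in Atp6ap2-iECKO. Fibroblast markers fell in 8 of 9 tested (summed level 79238 to 124387 against 27213 to 39288), with a median log2 fold change of -1.56. In the controls Col1a1 was at 8363 to 17353, and Mfap4 was at 33319 to 46331 against 8683 to 15396 in Atp6ap2-iECKO. Dcn and Lum of the same list were at 34.4 or less in every library, and Lum was not tested. Mural and smooth muscle markers fell in 6 of 10 (52615 to 55454 against 42261 to 50216), with a median log2 fold change of -1.49. Most of that summed level is Mcam, which did not fall (34055 to 42927 against 37002 to 43333, log2 fold change 0.10), so the sum understates the fall of the list. None of the 10 epithelial, 10 leukocyte and 7 tested erythroid and platelet markers was called by limma, and 0 of each were at an unadjusted p below 0.05. The summed epithelial level was nevertheless 72404 in control replicate 3 and 26116 to 38404 in the other libraries. The summed leukocyte level was lowest in Atp6ap2-iECKO replicate 2, at 4524, and was 5748 to 13113 in the other libraries. The platelet gene Ppbp was at 416 and 224 in control and Atp6ap2-iECKO replicates 1 and at 6.8 to 55.6 in the other 4 libraries, and Pf4 was at 463 and 407 against 58.6 to 225. The summed erythroid and platelet list, in which hemoglobin genes weigh most, was instead lowest in those replicates (12712 and 11425, against 17616 to 45487). The part of these cells in the results on the immediate early genes was not tested.

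All 10 members were among the most abundant transcripts of every library of either genotype. By normalized count, not corrected for gene length, their lowest rank was 793 of 24972 genes, for Ier3 in Atp6ap2-iECKO replicate 2, which lies in the top 3.18%. Jun ranked between 53 and 123, Nr4a1 between 65 and 262 and Fosb between 72 and 268. Per kilobase of merged exons, among 14311 tested genes with an exon length, Ier3 ranked between 85 and 171. Egr1 was then the lowest member, between 335 and 710. Together the 10 genes took 0.619%, 0.724% and 0.705% of the normalized counts in the controls, and 0.588%, 0.466% and 0.575% in Atp6ap2-iECKO. Every mutant library thus lay below every control for this sum, in which the most abundant members weigh most. Singly, the normalized counts did so for 15.0% of all genes tested and, of the 10 members, only for Fos and Fosb.

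**Figure D1:**
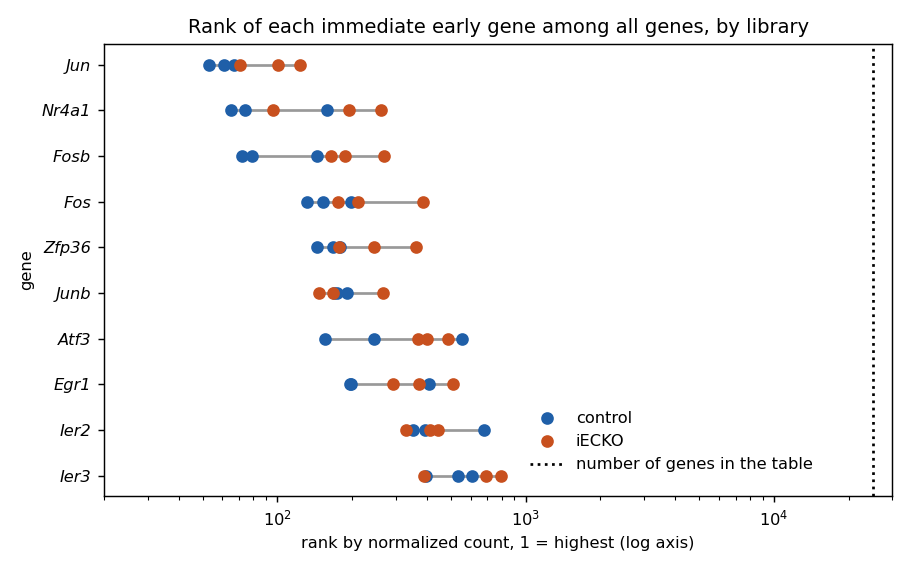
Rank of each immediate early gene by normalized count among all 24972 genes (log axis, 1 is the highest), with 1 point per library, blue for control and orange for Atp6ap2-iECKO. All points lie between rank 53 and rank 793, far left of the dotted line at the number of genes.

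Levels of different genes were compared per kilobase of merged exons, and their order depends on that length. For Zfp36 the merged length of 3470 bases equals the whole span of the gene. Any intron is then counted in it, so the per-kilobase level of Zfp36 and its place in the order may be too low. In the controls Jun stood highest at 10112 ± 1458 normalized counts per kilobase (SD, n = 3), followed by Junb at 9943 ± 445, Nr4a1 at 9477 ± 1999, Fos at 9045 ± 396 and Ier3 at 8663 ± 1642, and the libraries of each of these genes overlapped those of the next. Ier2, at 6891 ± 1117, lay below Ier3 without overlap of the control libraries. Atf3 (6689 ± 2273), Fosb (6596 ± 873) and Zfp36 (5428 ± 577) followed with overlapping libraries, and Egr1 was the lowest at 3370 ± 677, without overlap. In Atp6ap2-iECKO Junb stood highest, at 9318 ± 1199 per kilobase, and Egr1 again lowest, at 2515 ± 420. Per kilobase, Fosb was at 0.545 to 0.767 times the level of Fos over the 6 libraries, and Jun at 0.619 to 1.13 times that of Junb.

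**Figure D2:**
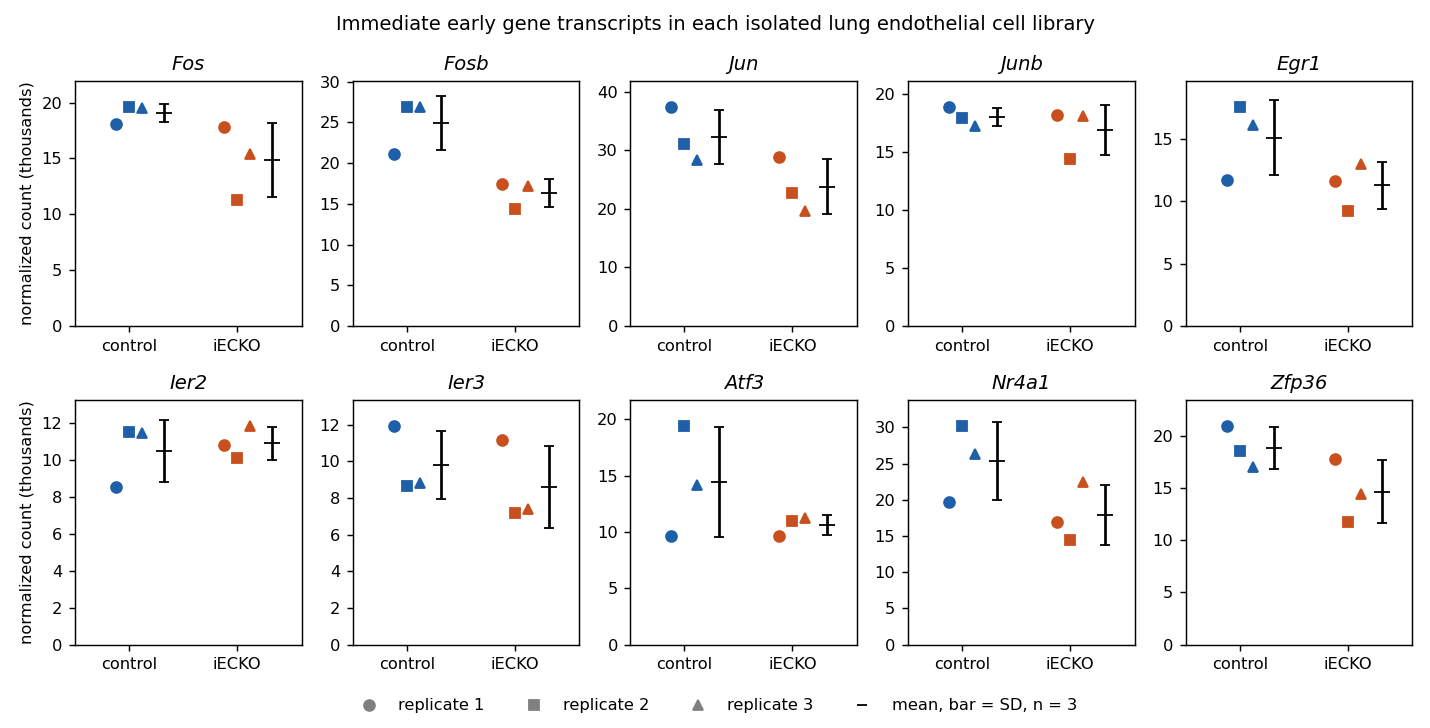
Normalized counts of each gene (vertical axis, in units of 1000, from 0) in the control and Atp6ap2-iECKO libraries, with circles, squares and triangles for replicates 1, 2 and 3, and the mean with its SD (n = 3) beside them. Fos and Fosb are the genes whose genotypes do not overlap.

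Fosb fell in Atp6ap2-iECKO and was the only one of the 10 members past the threshold, a limma adjusted p below 0.05 over the 14456 genes tested. Over all genes tested, 8.25% passed it, 4.97% lower and 3.28% higher. With an unadjusted limma p below 0.05, 6 of the 10 members were lower (Fos, Fosb, Jun, Egr1, Nr4a1 and Zfp36), against 12.3% of all genes. Among the 524 genes with a mean level at least that of the lowest member, 89 were lower by that measure. The count of members was 1 without control replicate 2, without Atp6ap2-iECKO replicate 2 or without the mean-variance trend of the fit. It was 3 without control replicate 3, without Atp6ap2-iECKO replicate 3 or under library size scaling, and 2 in the 4 libraries with high Xist. It rose to 8 with the replicate number as a block in the fit and without both libraries numbered 1. In the remaining alternatives it was 4 to 6. Over all genes, either direction counted, 3453 had such a p in the main fit. That number was 3117, 2646 and 3240 in the settings with a member count of 1, in the order given. In 2 of 10, Fos and Fosb, every mutant library lay below every control, against 15.0% of all genes. The same held for 96 of those 524 genes. The count of 2 is near these shares, so it is no result about the members. The median log2 fold change of the 10 was -0.387, beside 0.005 over all genes tested and -0.035 over those 524. The estimate was below 0 for 9 of the 10, compared with 49.3% of all genes and 56.9% of those 524. In isolated cells, a lower level may mean fewer cells with the transcript or less transcript per cell, and these cannot be told apart.

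Of the FOS subunits, Fosb was at 21132, 26857 and 26850 normalized counts in the controls and at 17409, 14310 and 17231 in Atp6ap2-iECKO, so that the lowest control exceeded the highest mutant library. The log2 fold change was -0.61 (SE 0.13, limma adjusted p = 0.0321, lower in 3 of 3 mutant libraries). The call rested on most of the libraries: without 1 library at a time the adjusted p was below 0.05 only without control replicate 1 (0.0176), and it was 0.0896 and 0.101 without control replicates 2 and 3 and 0.053, 0.122 and 0.0922 without Atp6ap2-iECKO replicates 1, 2 and 3. In the 4 libraries with high Xist the log2 fold change was -0.46 (limma adjusted p = 0.253), and with Xist as a covariate the adjusted p was 0.0554.

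Fos, the partner of JUN proteins in AP-1, was at 18104, 19578 and 19518 in the controls and at 17791, 11291 and 15436 in Atp6ap2-iECKO. The genotypes did not overlap, but control replicate 1 and Atp6ap2-iECKO replicate 1 were close to each other. Its log2 fold change of -0.39 (SE 0.16) did not pass the test (limma adjusted p = 0.188). For both FOS genes the exact two-sided permutation test gave p = 0.1, the smallest that 3 libraries against 3 allow.

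Of the JUN subunits, Jun was at 37369, 31072 and 28297 in the controls and at 28896, 22710 and 19716 in Atp6ap2-iECKO. The highest mutant library lay just above the lowest control, and the log2 fold change of -0.45 (SE 0.17) did not pass the test (limma adjusted p = 0.145). Junb, which forms AP-1 dimers of weaker activity than Jun, was at 18823, 17917 and 17219 in the controls and at 18140, 14353 and 18078 in Atp6ap2-iECKO. Only Atp6ap2-iECKO replicate 2 stood below the controls, and the log2 fold change was -0.10 with a 95% interval of -0.36 to 0.16 (limma adjusted p = 0.648). Without that library it was 0.011.

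Nr4a1, the nuclear receptor, was at 19635, 30231 and 26298 in the controls and at 16961, 14415 and 22524 in Atp6ap2-iECKO. Control replicate 1 lay below Atp6ap2-iECKO replicate 3, and the log2 fold change of -0.50 (SE 0.20) did not pass the test (limma adjusted p = 0.18). Egr1 was at 11711, 17539 and 16087 in the controls and at 11619, 9246 and 12964 in Atp6ap2-iECKO, with control replicate 1 again inside the mutant range. Its log2 fold change was -0.42 (SE 0.18, limma adjusted p = 0.202).

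Atf3 was at 9633, 19419 and 14175 in the controls and at 9594, 10944 and 11249 in Atp6ap2-iECKO. Both libraries numbered 1 were the lowest of the 6 and control replicate 2 was the highest of the 6. The log2 fold change was -0.39 (SE 0.22, limma adjusted p = 0.348). The spread of Atf3 within genotypes, an SD of 0.37 on the log2 scale, was at the 76.6 percentile of all genes tested, and that of Junb, 0.14, was at the 36.3 percentile. The median within-genotype SD was 0.243 over the 10 members and 0.189 over all genes tested.

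Zfp36, the mRNA decay factor, was at 20963, 18552 and 16986 in the controls and at 17780, 11751 and 14417 in Atp6ap2-iECKO. The overlap came from Atp6ap2-iECKO replicate 1, above control replicate 3, and the log2 fold change of -0.38 (SE 0.16) did not pass the test (limma adjusted p = 0.19). Ier3 was at 11939, 8629 and 8826 in the controls and at 11152, 7194 and 7403 in Atp6ap2-iECKO. Here replicate 1 was the highest of each genotype, and the log2 fold change was -0.20 with a 95% interval of -0.65 to 0.24 (limma adjusted p = 0.576).

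Ier2 was the 1 member with an estimate above 0. It was at 8525, 11499 and 11438 in the controls and at 10799, 10084 and 11856 in Atp6ap2-iECKO, so that control replicate 1 was the lowest of the 6 and the other libraries lay between 10084 and 11856. The log2 fold change was 0.07 with a 95% interval of -0.24 to 0.37 (limma adjusted p = 0.806), and it was -0.075 without control replicate 1.

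**Figure D3:**
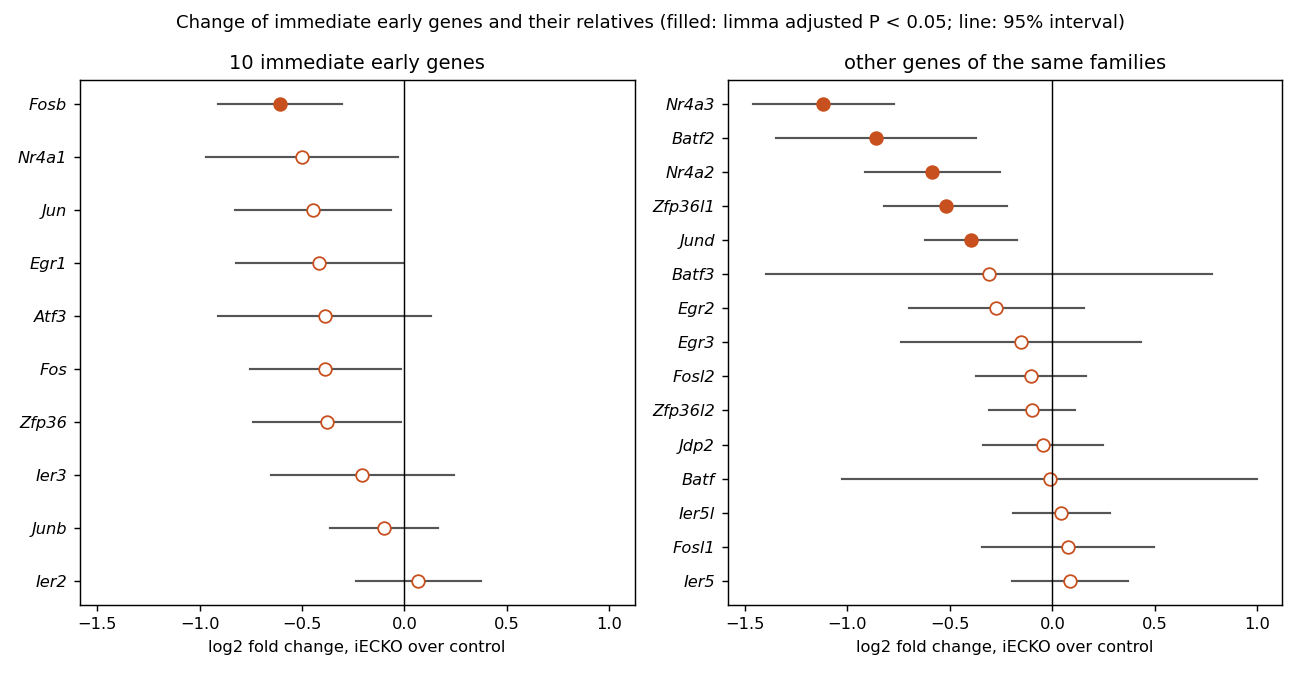
Log2 fold change of Atp6ap2-iECKO over control (horizontal axis) with its 95% interval for the 10 immediate early genes and for 15 other genes of their families. Filled points have a limma adjusted p below 0.05, which holds for Fosb on the left and for Nr4a3, Batf2, Nr4a2, Zfp36l1 and Jund on the right.

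The members did not all vary together across the libraries. Relative to each gene's mean over the 6 libraries, the median deviation of the 10 members on the log2 scale was 0.096, 0.206 and 0.166 in the controls and 0.043, -0.404 and -0.108 in Atp6ap2-iECKO. Atp6ap2-iECKO replicate 2 was the lowest mutant library for 8 of 10 members, the exceptions being Jun and Atf3. Control replicate 1 was the lowest control for 6 of 10 (Fos, Fosb, Egr1, Ier2, Atf3 and Nr4a1) and the highest for the remaining 4 (Jun, Junb, Ier3 and Zfp36). Among the mutant libraries, replicate 1 was the highest for 6 of 10, namely Fos, Fosb, Jun, Junb, Ier3 and Zfp36. These libraries numbered 1 are those in which the platelet genes were highest.

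Leaving both libraries numbered 1 out, an alternative chosen after the data were seen, gave an estimate below 0 for all 10 members and a median of -0.527, with Fosb as the 1 member called. In the 4 libraries with high Xist 9 of 10 were below 0, with a median of -0.262. The log2 fold changes there were -0.18 for Fos, -0.51 for Jun, -0.02 for Junb, -0.22 for Egr1, -0.32 for Nr4a1, -0.40 for Atf3, -0.30 for Zfp36, -0.16 for Ier3 and 0.19 for Ier2. In these 4 libraries limma called 0 members and 0 of all genes, and 2 members and 2196 genes had an unadjusted p below 0.05. With the library of lowest member levels, Atp6ap2-iECKO replicate 2, left out, 8 of 10 were below 0 and the median was -0.254.

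**Figure D4:**
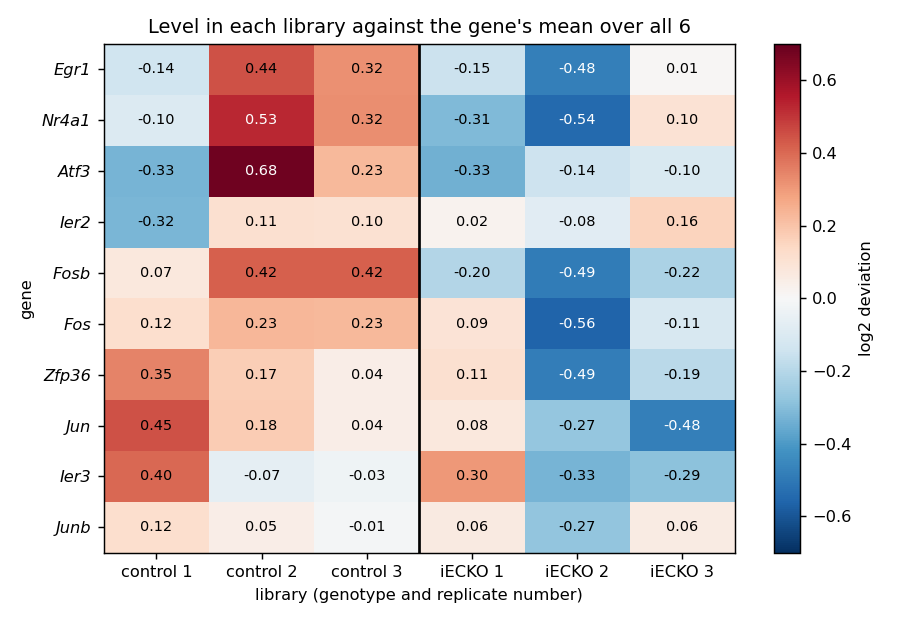
Level of each gene in each library as the log2 deviation from its mean over the 6 libraries (red above, blue below, values printed in the cells). Atp6ap2-iECKO replicate 2 is below the mean for all 10 genes, and control replicate 1 is below it for Egr1, Nr4a1, Atf3 and Ier2 and above it for the others.

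Other genes of the members' families were examined as a list of 16, of which 15 passed the filter on low values and Egr4 did not. Nr4a3, Nr4a2, Batf2, Zfp36l1 and Jund fell, 5 of 15 lower (33.3%, against 8.25% called over all genes) and 0 higher, and the median log2 fold change of the list was -0.151. Nr4a3, an orphan nuclear receptor gene of the Nr4a1 family, was at 5782, 6553 and 4955 in the controls and at 2547, 2252 and 3202 in Atp6ap2-iECKO. Its highest mutant library was thus well below its lowest control. The log2 fold change was -1.12 (SE 0.15, limma adjusted p = 0.0103), and with 1 library left out the adjusted p stayed between 0.0188 and 0.0411 in 6 of 6 fits. It was 0.121 in the 4 libraries with high Xist, at a log2 fold change of -1.11. Per kilobase, Nr4a1 was at 7.25 to 11.3 times the level of Nr4a3 in the controls and at 13.7 to 15 times in Atp6ap2-iECKO.

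Nr4a2 was at 6148, 6411 and 5355 in the controls and at 3810, 3345 and 4897 in Atp6ap2-iECKO (log2 fold change -0.59, limma adjusted p = 0.0462). Zfp36l1, an mRNA decay factor of the Zfp36 family, was at 34075, 26625 and 27282 against 22493, 20327 and 18327 (-0.52, limma adjusted p = 0.0491). Jund, the third JUN gene, was at 14319, 13720 and 16719 against 11545, 11360 and 10944 (-0.40, limma adjusted p = 0.0458). In each of these the genotypes did not overlap, yet the calls lay close to the threshold. Batf2 was far less abundant, at 189 to 288 in the controls and 110 to 144 in Atp6ap2-iECKO (-0.86, limma adjusted p = 0.0468).

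With 1 library left out, Jund and Zfp36l1 were called in 0 of 6 fits (limma adjusted p 0.0582 to 0.164 and 0.0617 to 0.18), Batf2 only without control replicate 1 (0.0401 to 0.153) and Nr4a2 only without Atp6ap2-iECKO replicate 3 (0.0414 to 0.139). Fosl2, the most abundant of the FOS relatives listed, was at 19675 ± 2351 in the controls and 18274 ± 1614 in Atp6ap2-iECKO (SD, n = 3), a log2 fold change of -0.10 with a 95% interval of -0.37 to 0.16. The growth-factor-induced Egr2 and Egr3 had log2 fold changes of -0.27 and -0.15 and did not pass the test (limma adjusted p = 0.422 and 0.773).

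In a list of 29 further immediate early and primary response genes, 28 were tested (not Npas4). Btg2 and Mafk fell and Myc rose, 10.7% of the list, near the 8.25% of all genes, and the median log2 fold change was -0.161. Myc, a growth-promoting transcription factor, was at 803, 828 and 545 in the controls and at 1228, 1172 and 1385 in Atp6ap2-iECKO, a log2 fold change of 0.82 (SE 0.17, limma adjusted p = 0.0274). All mutant libraries were above all controls. The adjusted p stayed below 0.05 without any 1 control library and was 0.055, 0.0754 and 0.107 without Atp6ap2-iECKO replicates 1, 2 and 3. Btg2, an antiproliferative gene, was at 9492, 14744 and 13092 against 6880, 7627 and 8689 (-0.67, limma adjusted p = 0.0482), and Mafk, a small MAF factor, at 8353, 7198 and 7355 against 6029, 5659 and 5760 (-0.39, limma adjusted p = 0.0331). Btg2 was called only without control replicate 1 among those 6 fits (adjusted p 0.0121 to 0.142) and Mafk in 0 of 6 (0.0504 to 0.131). The most abundant genes of the list, Mcl1 and Klf4, had log2 fold changes of -0.07 (95% interval -0.30 to 0.15) and -0.15 (-0.43 to 0.12).

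Of 26 kinases and transcription factors that act upstream of immediate early genes, 2 fell and 0 rose, with a median log2 fold change of 0.01. That share, 7.69%, is near the 8.25% of all genes, so it is no result about the list. Srf, which encodes the factor that binds CArG boxes, was at 3865, 4380 and 4486 in the controls and at 2870, 2888 and 2748 in Atp6ap2-iECKO. The mutant libraries lay close together and below all controls (log2 fold change -0.58, SE 0.083, limma adjusted p = 0.0108). The call was lost without Atp6ap2-iECKO replicate 3 (0.0524) and in the 4 libraries with high Xist (-0.55, 0.143). Nab2, a corepressor of EGR proteins, was at 2424, 2073 and 1958 against 1674, 1478 and 1626 (-0.43, limma adjusted p = 0.0435), and it was called in 0 of 6 fits with 1 library left out (0.0653 to 0.154). The abundant Elk3, a ternary complex partner of SRF, was at 13777 ± 375 and 14691 ± 1475 (0.09, 95% interval -0.13 to 0.31), and the kinase gene Rps6ka3 at 8202 ± 1678 and 8473 ± 601 (0.07, -0.28 to 0.41). Beside these values, Srf is also abundant in mural cells, whose markers were lower in Atp6ap2-iECKO, and the part of those cells was not tested.

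A further pair of lists covered other responses to tissue digestion. Of 20 NF-kB and inflammatory genes 1 rose and 0 fell (5%, against 8.25% of all genes), with a median log2 fold change of -0.182. Relb, an NF-kB subunit, was at 909, 842 and 871 in the controls and at 1058, 1236 and 1439 in Atp6ap2-iECKO (0.50, limma adjusted p = 0.0463), and its call held only without Atp6ap2-iECKO replicate 1 among the 6 fits (adjusted p 0.0255 to 0.151). The abundant Icam1, a leukocyte adhesion receptor, and Irf1, an interferon response factor, had log2 fold changes of 0.24 and 0.03 (limma adjusted p = 0.189 and 0.907).

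Of 15 heat shock genes 1 fell and 0 rose (6.67%, against 8.25% of all genes), with a median log2 fold change of -0.216. With an unadjusted limma p below 0.05 there were 8 of 15, 5 lower and 3 higher, against 23.9% of all genes. Hspb1, a small heat shock protein gene, was at 958, 1610 and 1544 against 801, 777 and 536 (-0.94, limma adjusted p = 0.0454), called only without control replicate 1 among the 6 fits (0.017 to 0.142). The constitutive chaperone genes Hspa8 and Hsp90ab1 had log2 fold changes of -0.06 (95% interval -0.36 to 0.25) and 0.05 (-0.23 to 0.32). Hspa1a, the stress-induced HSP70 gene, was named after its values were seen: it was at 4942, 16608 and 9048 in the controls and at 5183, 3876 and 1968 in Atp6ap2-iECKO. Control replicate 1 lay below Atp6ap2-iECKO replicate 1, and the log2 fold change of -1.41 (SE 0.47) did not pass the test (limma adjusted p = 0.112). Reads of Hspa1a and its near-identical copy Hspa1b (-1.38) may have been divided between them. In the 4 libraries with high Xist none of the 12 genes called in these lists was called, with limma adjusted p from 0.121 (Nr4a3) to 0.318 (Batf2), and each had the direction given above.

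Over the 6 libraries, the genes with a mean of at least 100 normalized counts whose log2 levels most resembled the mean pattern of the 10 members were Runx1t1, Lrp1, 1110065P20Rik, Oas1b and Plin2, with Pearson r between 0.9855 and 0.9875 among 11311 candidates. These r values are a description over 6 points that share the genotype difference. Lrp1, an endocytic receptor gene, was at 6760, 9833 and 9144 in the controls and at 5299, 3026 and 4367 in Atp6ap2-iECKO, a log2 fold change of -1.04 (limma adjusted p = 0.0287), and Plin2, which coats lipid droplets, was at 1828, 2122 and 1856 against 1649, 1204 and 1606 (-0.39, limma adjusted p = 0.122).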

How the data were processed

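RNA was sequenced from isolated lung EC libraries (TruSeq, NextSeq), aligned to mm10 and quantified by the authors with BaseSpace tools. The deposited signal values appear to be gene counts that the authors' tools had divided by size factors. They are not whole numbers, and 67% to 83.2% of low values were whole multiples (within 0.1) of a common step, so reads were not recovered, count models were not used and no counting interval can be given. Values were tested as log2(value + 1) with limma 3.58.1 (R 4.3.3, empirical Bayes with a mean-variance trend, Benjamini-Hochberg adjustment) on the 14456 genes with at least 10 in at least 3 libraries, 3 control against 3 Atp6ap2-iECKO, so a fold change is on that scale. Single genes were also tested by exact two-sided permutation. Nothing states that replicates are separate mice beyond the description as biological replicates, so p-values measure the spread between these libraries. Members and lists were chosen with earlier results of these data known. Named were the members, Atp6ap2, the called genes (at most 6) and the 2 most abundant genes of each list, and the 5 genes most like the members. Exon lengths came from the GRCm38 annotation and matched 98.1% of symbols. Promoters of 8 of 10 members came from RefSeq (GRCm38).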

Additional observations from a re-analysis of the deposited data

How the results depend on the processing

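The median log2 fold change of the 10 members was below 0 under all 19 alternatives (-0.527 to -0.254), and the direction of each member held except for Junb without Atp6ap2-iECKO replicate 2 (0.011, and -0.158 at the lowest with 1 library left out) and Ier2 without control replicate 1 (-0.075, and 0.141 at the highest with 1 library left out) or without both libraries numbered 1 (-0.069). Not all of these alternatives could change a direction. The filters, the trend, robust empirical Bayes, the threshold, the replicate block and the Xist covariate leave the estimates unchanged in this balanced design. The pseudocounts hardly alter them at these levels, and the median stayed at -0.387 in each of these settings. Only the rescalings and the fits with libraries left out could move it. Calls depended on the setting, and where no cause is named it was not tested. All genes called numbered 1193, but 304 without the mean-variance trend, 1987 at an adjusted p below 0.1, 767 with Xist as a covariate, 0 in the high-Xist libraries (fewer samples, 2196 with an unadjusted p below 0.05) and 206 to 983 with 1 library left out. Members called were 0 without the trend, with the Xist covariate and in the high-Xist libraries, 2 with the replicate block (Fosb and Jun, adjusted p 0.0219 for Jun) and 0 to 1 with 1 library left out. Atp6ap2 lost its call without the trend (-1.22, adjusted p 0.0917), in the high-Xist libraries (-1.19, 0.217) and in 5 of 6 fits with 1 library left out (-1.544 to -0.999 over the 6, the call kept at -1.544). Family genes called (5) were 2 under library size scaling or the Xist covariate, 1 without the filter, the trend or both libraries numbered 1, 0 in the high-Xist libraries and 1 to 2 with 1 library left out. Other immediate early genes called (3) were 0 without the trend or in the high-Xist libraries, 1 with the Xist covariate, 6 at an adjusted p below 0.1 or without both libraries numbered 1 and 0 to 6 with 1 library left out. Upstream genes called (2) were 0 without the trend or in the high-Xist libraries, 1 without the filter or both libraries numbered 1 and 0 to 1 with 1 library left out. NF-kB genes called (1) were 0 without the filter or trend or in the high-Xist libraries, 2 at an adjusted p below 0.1 or with the replicate block and 0 to 1 with 1 library left out. Heat shock genes called (1) were 0 under library size scaling, robust empirical Bayes, without the trend, with the Xist covariate and in the high-Xist libraries, 2 at an adjusted p below 0.1, 3 with the replicate block, 4 without both libraries numbered 1 and 0 to 1 with 1 library left out. Under library size scaling all genes called were 573 higher and 599 lower, in place of 474 and 719. The 474 higher and 719 lower calls became 460 and 365 without control replicate 2, 32 and 218 without Atp6ap2-iECKO replicate 2 and 28 and 178 without Atp6ap2-iECKO replicate 3. The deviations of same-numbered libraries correlated at r = 0.252, 0.114 and 0.078. Not every pair exceeded 0.1, a cut that was not among the planned settings, and the main fit did not pair the libraries. That cut does not settle whether the numbers mark pairs, because 5 of 6 libraries correlated best with their own number. The replicate block raised all calls from 1193 to 1508 and took the call from Nr4a2 (adjusted p 0.0559). The choices of the high-Xist libraries and of leaving out both libraries numbered 1 were made after seeing the data.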
